A study of Drosophila melanogaster with 18 samples.

Results

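The 10 genes described here, dnc, rut, amn, rad, Nf1, cer, orb2, Pka-C1, Fas2 and klg, are genes known from studies of memory in Drosophila melanogaster. They were taken by symbol from the 2 deposited count tables, 1 for each sex, and all 10 were found among 16727 distinct symbols. All 10 also passed the filter on low counts in the fit of each sex and in that of all libraries. The tables hold RNA-seq of whole flies at 5 days of age in 6 groups with 3 libraries each, which gives 18 libraries. INT males, NINT males, INT females and NINT females were taken at generation 12, and F0 males and F0 females at generation 0. What INT and NINT stand for is not written out in the labels, and the title of the series concerns intelligence and longevity. INT and NINT flies carry the same strain label, genetically heterogenous. The strain label shared by all F0 libraries names 10 stocks, Canton-S, Harwich, BER_2, Wild_1A, DGRP-100 and Oregon-R-C, the white-eyed stock w1118, and the marker stocks mwh (multiple wing hairs), flr3 (flare3) and Oregon R flare3. No label says that replicates came from separate vials or cohorts of flies, and the spread behind each p-value may then be technical.

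Learning in flies depends on cAMP made and broken down in neurons of the mushroom body, a paired structure of the brain. The adenylyl cyclase Rutabaga makes cAMP when calcium and a receptor signal coincide, the phosphodiesterase Dunce degrades it, and cAMP releases the catalytic subunit of protein kinase A (PKA) from its regulatory subunits. Other memory genes act on the stability of the trace, on translation at the synapse or on cell adhesion. In RNA of whole flies the brain is a small part, and fewer cells of a type and less RNA per cell cannot be told apart.

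Of these genes 5 lie on the X chromosome of the build dm6. They are dnc (3176440 to 3339327, plus strand), rut (14787478 to 14826073, minus strand), amn (19886108 to 19890060, minus strand), rad (12988615 to 13079070, plus strand) and Fas2 (4132887 to 4206093, minus strand). On the autosomes lie Nf1 (3R, 25983013 to 25995737, plus strand), klg (3R, 22899284 to 22961731, plus strand), orb2 (3L, 8937100 to 8954463, minus strand), Pka-C1 (2L, 9682315 to 9699297, minus strand) and cer (2R, 19396215 to 19396772, minus strand). The gene listed as rad is radish, whose current symbol is rsh. In 4 genes the exons share bases with another gene. These are 420 bases of rut with the lncRNA CR45522, 140 bases of amn with Hers and 212 bases of cer with the antisense RNA CR45925, each on the opposite strand, and 1319 bases of orb2 with CG43783 on the same strand. Whether counting used the strand is not stated in what was used here, so counts of these 4 genes may hold reads of their neighbours. Hers, at 85.6 ± 32.6 CPM in INT males against 1.89 ± 0.793 CPM for amn, was the neighbour with the larger level, and CR45522 was at most at 3.39 ± 0.425 CPM in a group (F0 males). CG43783 was at 55.2 ± 12.7 CPM in INT males and 49.4 ± 5.79 CPM in NINT males, and at 20.9 ± 0.789 CPM in INT females and 24.6 ± 0.495 CPM in NINT females, where orb2 was at 108 ± 13.5 and 82.2 ± 3.23 CPM. CR45925 was not analysed here.

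Male libraries held 31.8 to 39.2 M counts, and female libraries 31.6 to 35.4 M in INT, 40.9 to 47.2 M in NINT and 50.2 to 58.3 M in F0. Ribosomal RNA took 10.41% to 23.16% of the counts in INT females, 5.94% to 7.36% in NINT females and 20.28% to 36.26% in F0 females. Several libraries stood apart. The female-specific genes Yp1, Yp2 and Yp3, which encode yolk proteins, summed to more than 500 CPM (counts scaled to library size) in NINT males 2 and 3 and in F0 males 1 and 2. The flight muscle actin gene Act88F was above 1000 CPM in INT female 3, in F0 females 1 and 2 and in F0 male 1. Neuron markers were present in every library, with a sum of 10 genes from 236 CPM in NINT female 3 to 1056 CPM in F0 female 1.

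Levels are given as CPM with library sizes scaled by the trimmed mean of M-values (TMM) within each sex, as in the tests of that sex. Per kilobase of exon, orb2 and cer stood highest in males. The translational regulator orb2 was at 91.1 ± 24.1 CPM per kb in INT males, 71.4 ± 9.02 in NINT males and 124 ± 28.5 in F0 males (SD, n = 3 in each group here and below). The small gene cer was at 68.5 ± 6.48 CPM per kb in INT males, 98.5 ± 4.29 in NINT males and 104 ± 14.05 in F0 males. In females cer ranked first in each group, followed by Pka-C1 and orb2. The lowest per-length levels were those of amn and rad in each of the 6 groups. The neuropeptide gene amn had 28 to 341 counts in a library, the fewest of the 10 genes together with rad and klg.

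**Figure D1:**
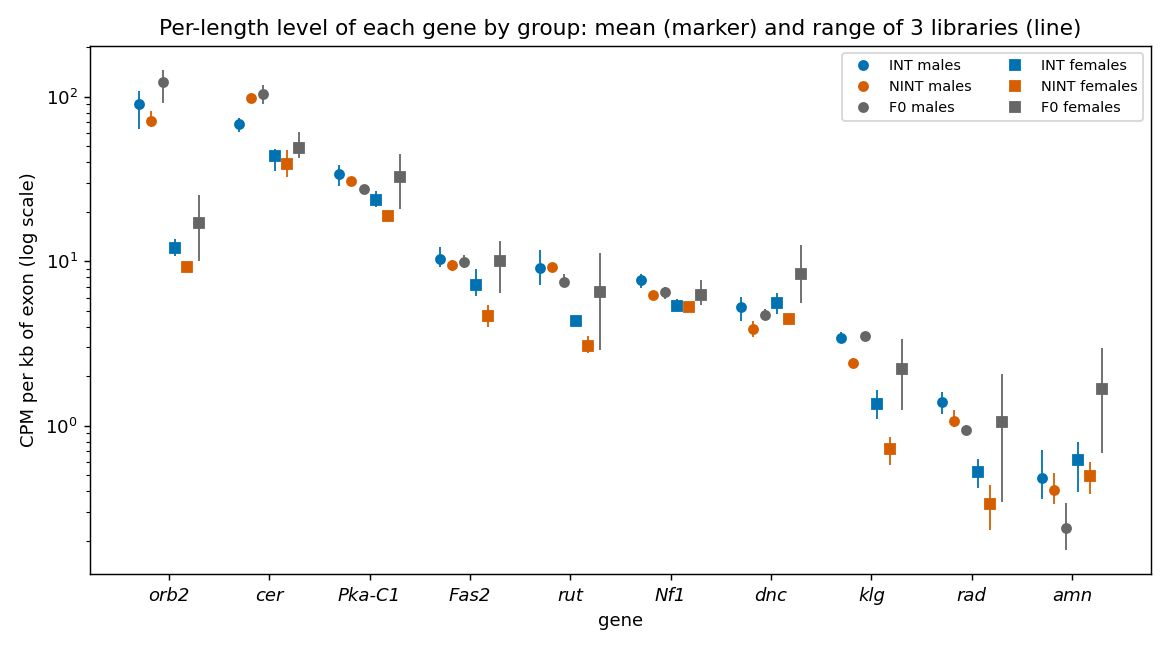
Level of each gene per kilobase of exon (CPM per kb, log scale), as the mean of 3 libraries (circles for males, squares for females) with a line from the lowest to the highest library, in INT, NINT and F0. The levels of orb2 in males lie above those in females, and amn and rad lie lowest.

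In males the question was whether INT flies differ from NINT flies in these genes. None of the 10 genes passed the test, edgeR's quasi-likelihood test with Benjamini-Hochberg adjustment at 0.05, which called 0.0399% of 15051 genes. Their adjusted p-values were 0.158 to 0.944, and 5 had an unadjusted p under 0.05, against 16.4% of all genes. The fold changes of 8 of the 10 lay above 0, as did those of 51.0% of all genes, and the median log2 fold change was 0.27, against 0.01 over all genes.

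The adhesion molecule gene klg, needed for long-term memory, was at 13.4, 15.2 and 13.1 CPM in INT males and at 9.27, 10.5 and 9.49 CPM in NINT males. All 3 INT libraries were above all 3 NINT libraries. Its log2 fold change of 0.51 had an SE of 0.12 and an adjusted p of 0.158 by edgeR. The gene cer (crammer) encodes an inhibitor of cathepsin-type proteases that is needed for long-term memory. It ran the other way, at 30.5, 34.7 and 36.9 CPM in INT males and 48.5, 47.1 and 51.3 CPM in NINT males. No INT library reached the lowest NINT library, and the log2 fold change was -0.52 (SE 0.13, adjusted p = 0.167 by edgeR). Both genes were called by DESeq2 (adjusted p = 0.00286 for klg and 0.0196 for cer), which called 6.21% of all genes. They were also called by edgeR without INT male 3 (adjusted p = 0.0153 and 0.0228), a fit that called 26.1% of all genes.

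The Ras regulator Nf1, which also acts on cAMP signalling, was at 69.0, 80.9 and 84.3 CPM in INT males and at 60.2, 65.0 and 62.4 CPM in NINT males, again without overlap (log2 fold change 0.32, SE 0.12, adjusted p = 0.26 by edgeR). With klg it made 2 of the 10 genes with INT males wholly above NINT males, against 9.66% of all genes, and cer was the 1 gene wholly below, against 10.8%. With levels scaled over all 18 libraries, dnc, rad and Fas2 were also wholly above, which makes 5 genes, against 10.5% of all genes on that scale.

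The cAMP enzymes gave no common picture in males. The phosphodiesterase gene dnc was at 72.4, 101 and 90.4 CPM in INT males and 57.5, 72.9 and 62.6 CPM in NINT males. The groups overlapped by 1 library, INT male 1 (log2 fold change 0.45, SE 0.16, adjusted p = 0.227 by edgeR). The cyclase gene rut was at 69.5, 80.0 and 113 CPM in INT males and 88.8, 94.3 and 84.1 CPM in NINT males, so that INT spanned the NINT values (log2 fold change -0.03, 95% interval -0.44 to 0.39). The kinase gene Pka-C1 was at 164, 199 and 221 CPM in INT males and 172, 177 and 177 CPM in NINT males, with a 95% interval of the log2 fold change from -0.15 to 0.45. The NINT libraries were almost equal and lay within the INT range.

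The neuropeptide gene amn, known for a mutant that forgets early, was at 1.43, 1.44 and 2.81 CPM in INT males and 1.33, 1.46 and 2.05 CPM in NINT males. The groups overlapped, and the 95% interval of the log2 fold change ran from -0.62 to 1.07. The gene rad, needed for a memory form that resists anaesthesia, was at 11.9, 16.3 and 14.4 CPM in INT males and 9.88, 12.6 and 9.99 CPM in NINT males. INT male 1 alone was below the highest NINT library (log2 fold change 0.39, SE 0.16, adjusted p = 0.279 by edgeR).

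The CPEB-family gene orb2, which regulates translation in long-term memory, was at 969, 898 and 568 CPM in INT males and 582, 728 and 596 CPM in NINT males. INT male 3 was the lowest of these 6 libraries. The testis markers, whose 10 genes summed to 1561, 1145 and 596 CPM in INT males and 725, 992 and 730 CPM in NINT males, placed INT male 3 lowest as well. Their part in the orb2 level was not tested. Fas2, which encodes a homophilic adhesion molecule of mushroom body axons, was at 68.1, 67.7 and 89.9 CPM in INT males and 74.0, 63.7 and 69.4 CPM in NINT males. INT male 3 was high and the other INT libraries lay among the NINT values (95% interval of the log2 fold change -0.21 to 0.46).

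Neuron markers lay higher in INT males, with sums of 914 to 1050 CPM against 693 to 780 CPM in NINT males. All 10 markers had fold changes above 0, none was called, 5 had an unadjusted p under 0.05, and the median log2 fold change was 0.39. None of the 10 was at 0 counts in any group. Eye markers had 10 of 10 above 0 as well, with a median log2 of 0.37 and none called. Fat body markers summed to 1039 to 1240 CPM in INT males and 2042 to 2095 CPM in NINT males, with 7 of 7 below 0 and none called. Ovary markers summed to 28.2 to 36.3 CPM in INT males and to 40.5, 120 and 481 CPM in NINT males, 9 of 10 below 0 and none called. Glia markers had 5 of 9 above 0, with a median log2 of 0.03, and muscle markers 8 of 10, with a median of 0.26. Hemocyte markers had 10 of 10 below 0, with a median of -0.27. No glia, muscle or hemocyte marker was called. Male accessory gland markers summed to 5031 to 10117 CPM in INT males and 3895 to 5064 CPM in NINT males. Of these 9 of 10 lay above 0, with a median log2 of 0.97, 6 had an unadjusted p under 0.05 and none was called by edgeR. Testis markers had 9 of 10 above 0 as well, with a median of 0.36 and none called. The part of these markers in the levels of the memory genes was not tested.

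**Figure D2:**
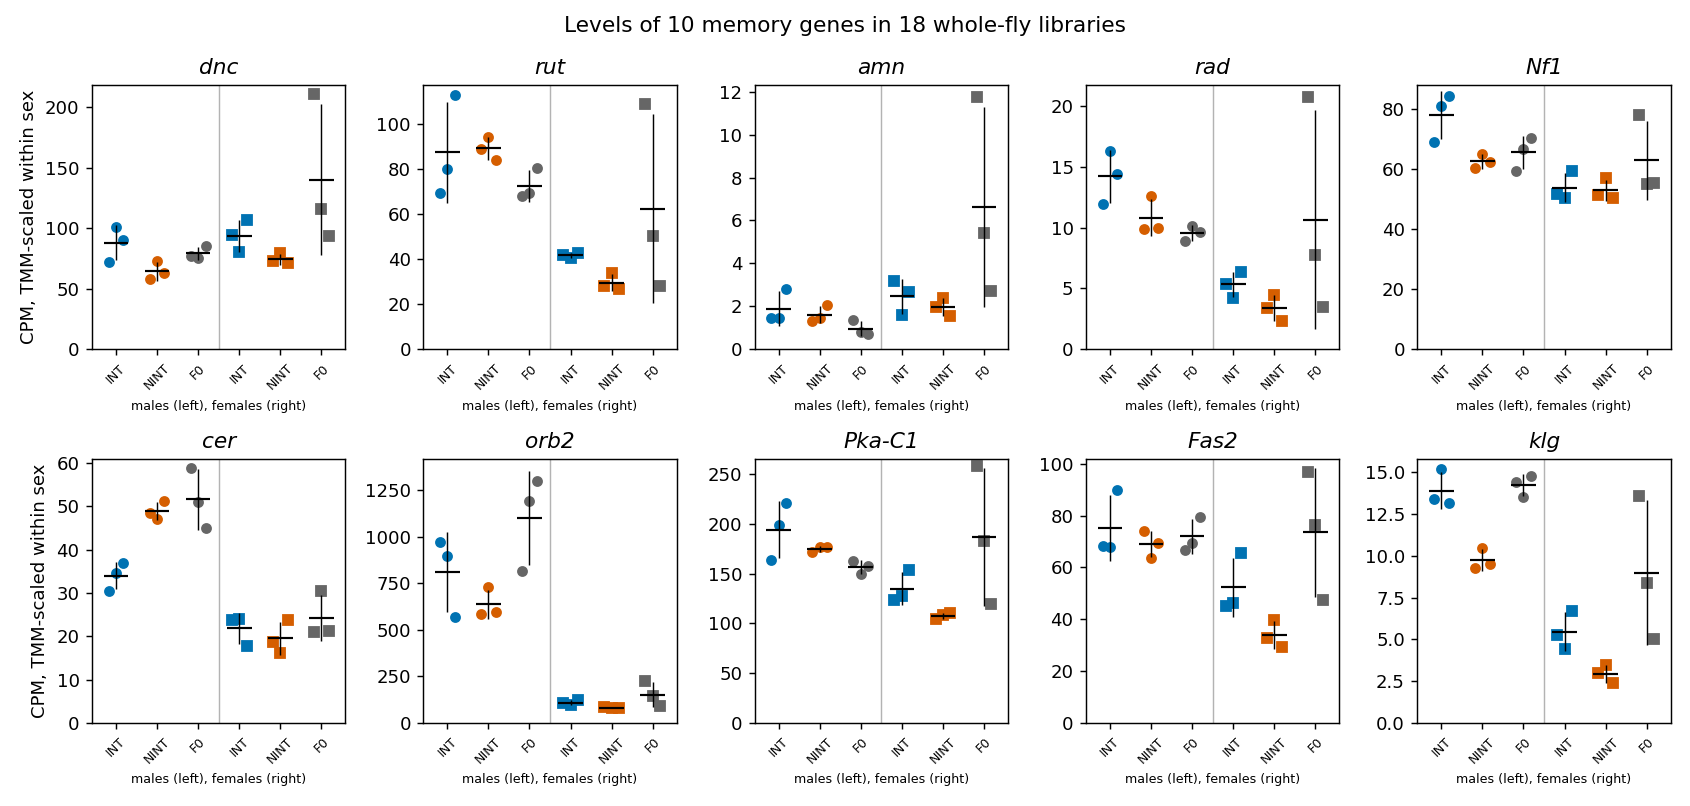
Level of each of the 10 genes (CPM, TMM-scaled within sex) in every library, with the mean and SD of 3 libraries as black lines. Circles are males and squares are females, in INT, NINT and F0, and heights are set by separate scaling in the sexes. INT males lie wholly below NINT males in cer, and F0 female 1 is the highest female library in 9 of 10 genes.

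In females all 10 genes had a mean that was higher in INT than in NINT, and none passed the test, which called 0.995% of 13169 genes. DESeq2 called none of the 10 either, and 6.61% of all genes. The adjusted p-values by edgeR were 0.278 to 0.953, and 2 genes had an unadjusted p under 0.05, against 15.0% of all genes. The median log2 fold change of the 10 was 0.36, against 0.01 over all genes, and 51.2% of all genes had one above 0. INT females were wholly above NINT females in 6 genes, dnc, rut, orb2, Pka-C1, Fas2 and klg, against 19.0% of all genes.

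The largest difference among the 10 in females was that of klg, at 5.27, 4.44 and 6.69 CPM in INT females and 2.96, 3.47 and 2.36 CPM in NINT females (log2 fold change 0.90, SE 0.35, adjusted p = 0.278 by edgeR). Every INT library was above every NINT library. In females Fas2 was at 45.2, 46.2 and 65.4 CPM in INT females and 32.8, 39.8 and 29.3 CPM in NINT females (log2 fold change 0.62, SE 0.26, adjusted p = 0.317 by edgeR). INT female 3, a library with high Act88F, was the highest of the 6. It was also the highest of the 6 in dnc, rut, rad, Nf1, orb2, Pka-C1 and klg, but not in amn and cer.

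The cyclase gene rut had a narrow spread, at 41.8, 40.3 and 42.8 CPM in INT females and 28.2, 33.6 and 26.7 CPM in NINT females. Its log2 fold change of 0.50 had an SE of 0.40 in the fit with F0 females, where rut varied widely. In a fit of the 6 INT and NINT libraries alone edgeR called rut (adjusted p = 0.0334) and klg (adjusted p = 0.0482), and 10.5% of all genes. Pka-C1 was at 123, 128 and 154 CPM in INT females and 104, 109 and 110 CPM in NINT females, without overlap (log2 fold change 0.33, SE 0.24). The cyclase's counterpart dnc was at 94.0, 80.3 and 107 CPM in INT females and 72.5, 79.4 and 70.9 CPM in NINT females, also without overlap (log2 fold change 0.33, SE 0.27).

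The level of orb2 was 106, 95.4 and 122 CPM in INT females and 85.9, 79.9 and 80.9 CPM in NINT females, the NINT libraries being the lower 3 (log2 fold change 0.39, SE 0.28). For rad the values were 5.39, 4.24 and 6.33 CPM in INT females and 3.38, 4.44 and 2.34 CPM in NINT females, with 1 crossing pair. For amn they were 3.17, 1.57 and 2.65 CPM in INT females and 1.98, 2.38 and 1.52 CPM in NINT females, which overlapped. The smallest difference was that of Nf1, at 51.7, 50.1 and 59.2 CPM in INT females and 51.3, 56.9 and 50.2 CPM in NINT females, with a 95% interval of the log2 fold change from -0.34 to 0.38.

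Markers of nerve tissue and muscle were also higher in INT females. Neuron markers summed to 360, 359 and 518 CPM in INT females and 251, 310 and 236 CPM in NINT females, all 10 with fold changes above 0 and a median log2 of 0.65. None of them was called by edgeR, and 2 had an unadjusted p under 0.05. Glia markers, 9 of 9 above 0, had the same median of 0.65, and muscle markers, 10 of 10 above 0, had a median of 1.62. No glia or muscle marker was called. Muscle markers summed to 4144, 6086 and 20221 CPM in INT females and 3891, 4053 and 2787 CPM in NINT females. INT female 3, with high Act88F, was thus far above the rest. Eye markers did not follow as a sum, at 1714 to 2094 CPM in INT females and 1805 to 2485 CPM in NINT females. Of these 7 of 10 lay above 0, with a median log2 of 0.50 and none called. No marker of these lists was at 0 counts in any group, and their part in the memory genes was not tested.

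**Figure D3:**
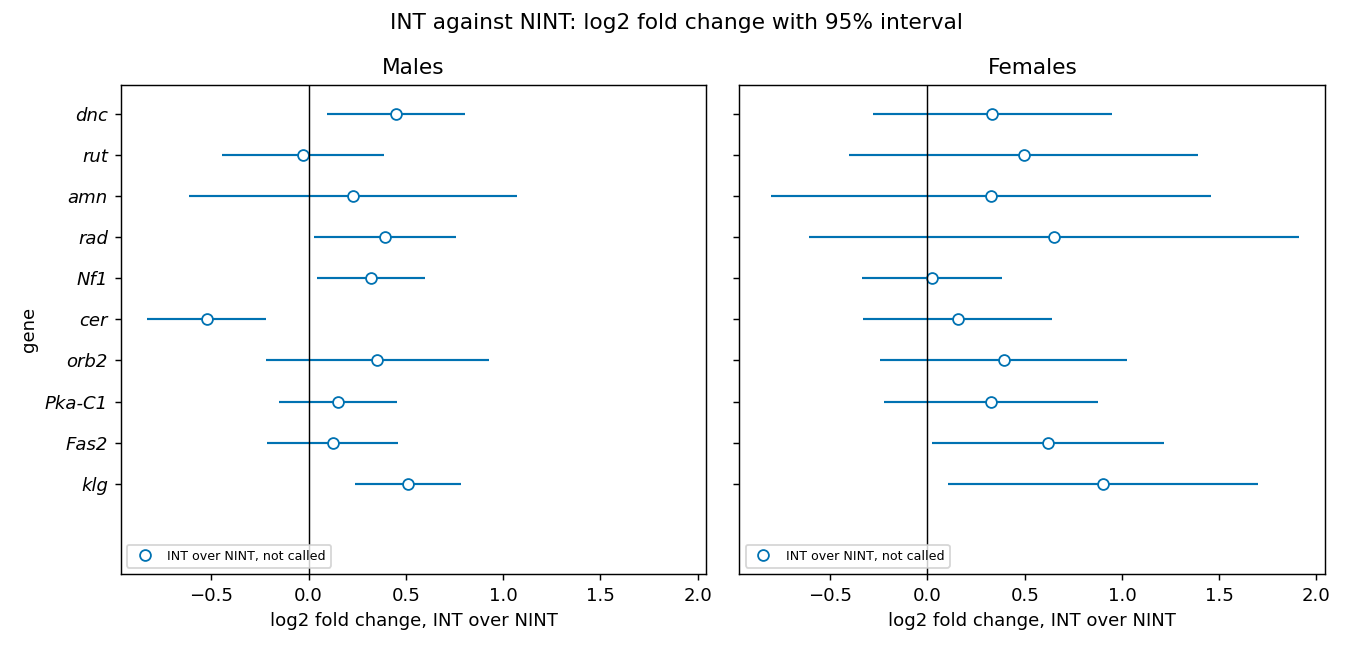
Log2 fold change of INT over NINT (x axis) with its 95% interval from edgeR for each gene (y axis), in males on the left and females on the right. Open circles are genes that did not pass an adjusted p of 0.05, which holds for all 10 in both sexes.

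The test of whether the difference between INT and NINT itself differs between females and males called none of the 10 genes, against 0.268% of all genes. The smallest p was that of cer, whose log2 difference, females minus males, was 0.62 (SE 0.26, unadjusted p = 0.0274, adjusted p = 0.334 by edgeR). In INT females cer was at 23.7, 24.0 and 17.7 CPM, and in NINT females at 18.8, 16.2 and 23.7 CPM, with overlap. It was the 1 gene of the 10 with an unadjusted p under 0.05, against 12.2% of all genes. DESeq2 called none of the 10 and 3.3% of all genes. For dnc the interaction was -0.17 (SE 0.33) and for klg 0.33 (SE 0.40).

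Both lines were also set against the F0 flies, whose libraries the comparisons share. In males edgeR called none of the 10 genes in INT against F0, a comparison in which it called 1.82% of all genes, and 4 of the 10 had an unadjusted p under 0.05, against 19.1%. DESeq2 called rad (log2 fold change 0.59, adjusted p = 0.0225) and cer (-0.58, adjusted p = 0.00276), and 9.41% of all genes. In NINT against F0 males edgeR called 1 of the 10, where it called 5.04% of all genes, 2.51% lower. That gene was klg, at 9.27, 10.5 and 9.49 CPM in NINT males and 14.4, 13.5 and 14.8 CPM in F0 males, with no overlap. The gene fell in NINT males, with a log2 fold change of -0.55, an SE of 0.12 and an adjusted p of 0.0409 by edgeR. Leaving out any 1 library of either group ended the call, at log2 fold changes of -0.51 to -0.60. Those fits called 84 to 924 of all genes, against 759 with all libraries. The call also ended on leaving out all libraries that stood apart, at a log2 fold change of -0.67. After that 1 male library was left in NINT and 1 in F0. INT males, at 13.9 ± 1.11 CPM, lay beside F0 males at 14.2 ± 0.65 CPM (95% interval of the log2 fold change -0.31 to 0.24).

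Among the other genes in males, cer was lower in INT than in F0, at 34.0 ± 3.22 against 51.6 ± 6.98 CPM, without overlap, against 11.7% of all genes wholly lower (log2 fold change -0.60, SE 0.13, adjusted p = 0.0636 by edgeR). NINT males were near F0 males, at 48.9 ± 2.13 CPM (95% interval of the log2 fold change over F0 -0.38 to 0.23). For orb2, NINT males were wholly below F0 males, which had 815, 1190 and 1299 CPM (log2 fold change -0.79, SE 0.25, adjusted p = 0.092 by edgeR). Testis markers, at 725 to 992 CPM in NINT males against 1201 to 1951 CPM in F0 males, were lower too, 10 of 10 below 0, and their part was not tested. INT males were above F0 males without overlap in amn, rad and Pka-C1, 3 genes, against 10.9% of all genes. For rad the F0 males had 8.87, 10.2 and 9.66 CPM and for Pka-C1 163, 149 and 158 CPM. NINT males were wholly above F0 males in rut and Pka-C1, 2 genes, against 24.3% of all genes, and wholly below in dnc, orb2 and klg, 3 genes, against 24.1%. With levels scaled over all 18 libraries no gene was wholly above, against 18.8% of all genes.

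In females 5 of the 10 genes were lower in NINT than in F0 by edgeR, a comparison in which 22.5% of all genes were called and 14.9% were called lower. They were dnc, amn, Pka-C1, Fas2 and klg. The log2 fold changes were -1.62 for klg (SE 0.36, adjusted p = 0.019), -1.11 for Fas2 (SE 0.27, adjusted p = 0.0238), -1.75 for amn (SE 0.51, adjusted p = 0.0397), -0.91 for dnc (SE 0.27, adjusted p = 0.0431) and -0.80 for Pka-C1 (SE 0.25, adjusted p = 0.0469). An unadjusted p under 0.05 was reached by 8, against 40.4% of all genes. All 10 genes had fold changes below 0, against 49.6% of all genes above 0, with a median log2 of -0.995, against -0.01 over all genes. NINT females were wholly below F0 females in 6 genes, these 5 and orb2, against 21.0% of all genes.

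The F0 females were far apart from each other. The level of dnc was 72.5, 79.4 and 70.9 CPM in NINT females and 211, 116 and 93.3 CPM in F0 females. For klg it was 2.96, 3.47 and 2.36 CPM in NINT females and 13.6, 8.35 and 5.04 CPM in F0 females. For Fas2 it was 32.8, 39.8 and 29.3 CPM in NINT females and 97.0, 76.2 and 47.2 CPM in F0 females. In each of these genes all F0 libraries were above all NINT libraries and F0 female 1 was highest. For rad, not called, it was 3.38, 4.44 and 2.34 CPM in NINT females and 20.8, 7.72 and 3.47 CPM in F0 females, and for rut 28.2, 33.6 and 26.7 CPM against 109, 50.0 and 27.8 CPM, so that F0 female 3 lay within the NINT range in both. F0 female 1 was above F0 female 2 and F0 female 2 above F0 female 3 in 8 of the 10 genes. F0 female 1 exceeded F0 female 3 by 5.99-fold in rad, 4.37-fold in amn and 3.91-fold in rut, but by 1.41-fold in Nf1, and cer was nearly equal in both (0.993-fold).

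The calls rest on these libraries. Without F0 female 3 edgeR called 8 of the 10 in NINT against F0, against 51.1% of all genes, and 8 in INT against F0, against 32.2%. Without F0 female 2 it called 0 in NINT against F0, against 4.74% of all genes, at log2 fold changes about as large (-1.03 for dnc, -1.87 for amn, -0.81 for Pka-C1, -1.08 for Fas2 and -1.67 for klg). It also called 0 without any 1 of the NINT females, at -0.88 to -0.96 for dnc and -1.48 to -1.75 for klg. Those fits called 583 to 656 of all genes, against 2961 with all libraries. Without F0 female 1 it called klg alone, against 12.4% of all genes, and the log2 fold changes were smaller for dnc (-0.49), amn (-1.04) and Pka-C1 (-0.49). With all libraries that stood apart left out, F0 female 3 being the 1 F0 female kept, it called 0, against 6.35% of all genes. The log2 fold changes were then -0.31 for dnc, -0.44 for amn, -0.13 for Pka-C1, -0.46 for Fas2 and -0.77 for klg. In INT against F0 females, with all libraries, edgeR and DESeq2 called none of the 10, edgeR calling 2.12% and DESeq2 7.46% of all genes. There 1 gene (amn) had an unadjusted p under 0.05, against 17.7%, and all 10 fold changes lay below 0, where 49.5% of all genes lay above.

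In the same libraries the neuron markers summed to 251, 310 and 236 CPM in NINT females and 1056, 633 and 341 CPM in F0 females 1 to 3, and edgeR called 6 of the 10 lower in NINT. Muscle markers summed to 2787 to 4053 CPM in NINT females and 58157, 41515 and 7437 CPM in F0 females 1 to 3, with 9 of 10 called lower. Glia markers had 5 of 9 called lower. The part of these markers in the memory genes was not tested.

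**Figure D4:**
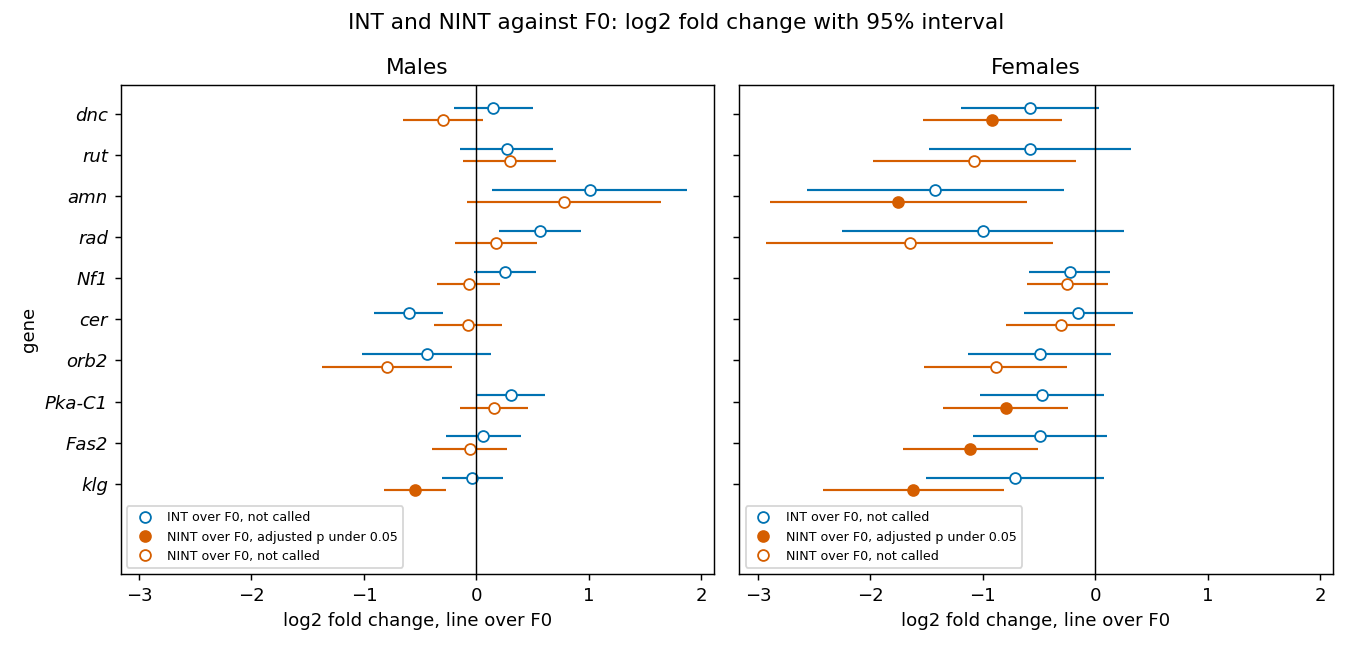
Log2 fold change over F0 (x axis) with its 95% interval from edgeR for each gene (y axis), for INT (blue) and NINT (orange), males on the left and females on the right. Filled circles mark an adjusted p under 0.05, which klg has in NINT males and dnc, amn, Pka-C1, Fas2 and klg have in NINT females. Both lines share the F0 libraries.

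**Figure D5:**
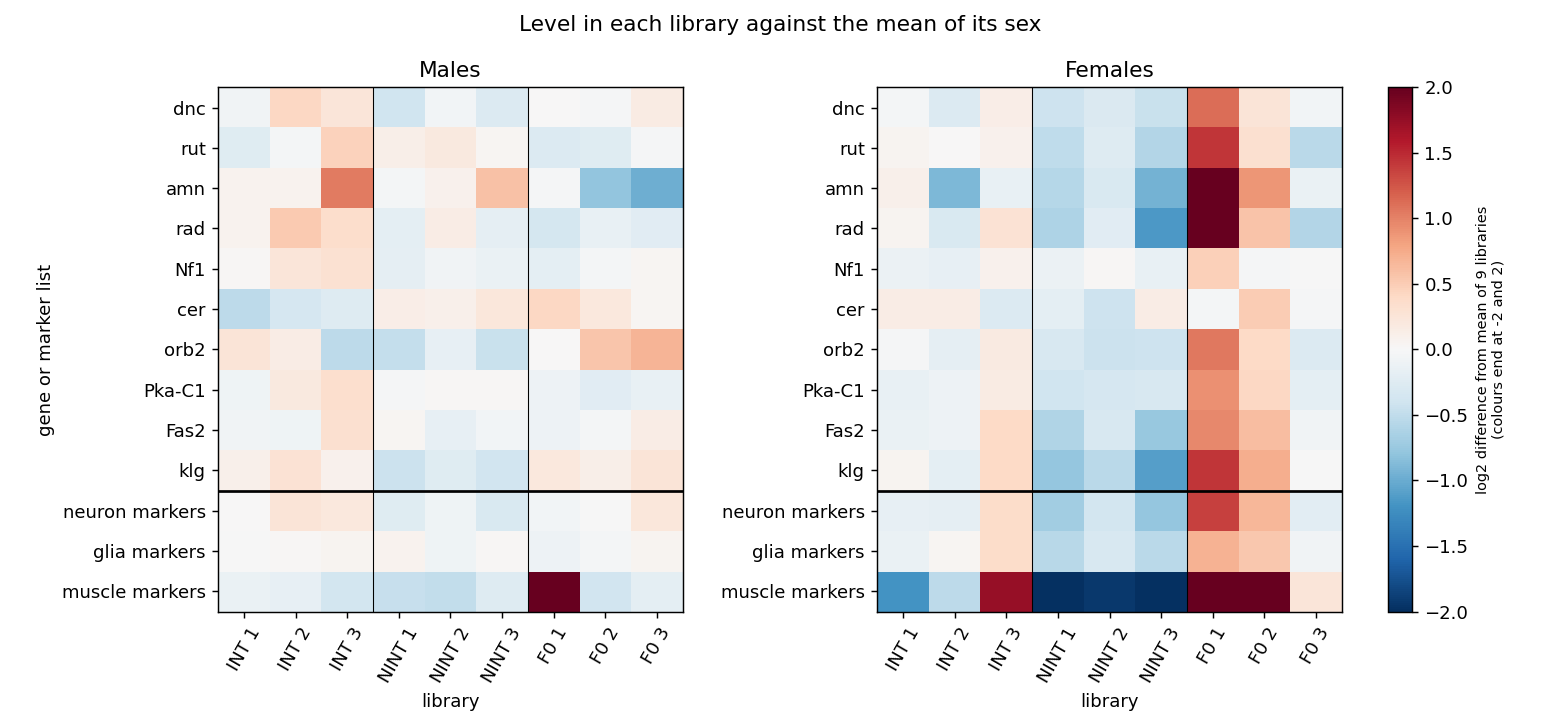
Log2 difference of each library from the mean of the 9 libraries of its sex, for the 10 genes and for the mean of the neuron, glia and muscle markers (on a log2 scale of CPM + 1), males on the left and females on the right. In females F0 female 1 is red and the NINT females are blue in most rows, while cer and Nf1 show pale colours.

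Whether the differences from F0 were themselves unequal in the sexes was tested after the data were seen. For INT against F0 edgeR called none of the 10, against 0.555% of all genes, and DESeq2 called amn, against 3.72% of all genes. For NINT against F0 edgeR called 1 gene, amn, against 8.15% of all genes and 5.2% called lower. The log2 difference of amn, females minus males, was -2.41 (SE 0.66, adjusted p = 0.0386 by edgeR), with amn below F0 in NINT females and above it in NINT males by the means. Leaving out any 1 of 10 libraries ended the call, and the difference was -1.70 without F0 female 1 and -1.32 (adjusted p = 0.657 by edgeR) without the libraries that stood apart. Its overlapping neighbour Hers was at 51.6 ± 8.20 CPM in NINT females and 88.9 ± 50.0 CPM in F0 females, and at 89.0 ± 13.8 CPM in NINT males and 58.9 ± 1.94 CPM in F0 males. The part of reads from Hers in the amn counts was not tested.

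The order of the groups in females was the same in all 10 genes by their means, with F0 highest, INT next and NINT lowest. The share of all genes with this order was not worked out. By mean sums neuron, glia, muscle and hemocyte markers had the same order, and eye, fat body and ovary markers the reverse order. A sum follows its most abundant genes, and single genes of the eye, fat body and ovary lists were divided. In INT against NINT females 7 of 10 eye, 4 of 8 fat body and 4 of 10 ovary markers lay above 0. In NINT against F0 females 4 of 10 eye, 4 of 8 fat body and 7 of 10 ovary markers did. With the libraries that stood apart left out, 1 F0 female was kept. The log2 fold changes of INT over F0 then lay above 0 for rut, rad, cer, orb2 and Pka-C1. F0 female 1 was the highest of the 9 female libraries in 9 genes, and in cer it was F0 female 2. In males no order held for more than 3 genes. INT was highest in 6 genes (dnc, amn, rad, Nf1, Pka-C1 and Fas2), F0 in 3 (cer, orb2 and klg) and NINT in rut.

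Males and females were compared over 9 libraries each, on levels scaled over all 18. edgeR called 6 of the 10 genes, 4 higher and 2 lower in males. Of all genes it called 81.2%, 45.7% higher and 35.6% lower. The largest difference was that of orb2, at 743 ± 265 CPM in males and 132 ± 53.5 CPM in females (SD, n = 9 each), with no overlap, against 24.9% of all genes wholly higher in males. Its log2 fold change was 2.49 (SE 0.19, adjusted p = 6.1e-09 by edgeR). On levels scaled within each sex, the testis markers summed to 596 to 1951 CPM in males and at most 6.15 CPM in females. The germline relative orb ran the other way, at 144 ± 55.8 CPM in males and 465 ± 35.8 CPM in females (log2 fold change -1.75, adjusted p = 2.6e-08 by edgeR).

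Higher in males were also klg (log2 fold change 0.83, SE 0.16), cer (0.59, SE 0.10) and rut (0.53, SE 0.19), and lower were amn (-1.59, SE 0.27) and dnc (-0.80, SE 0.14). The phosphodiesterase gene dnc averaged 66.7 ± 12.9 CPM in males and 119 ± 50.0 CPM in females. Levels of Fas2 were 62.1 ± 5.70 CPM in males and 61.7 ± 25.5 CPM in females (95% interval of the log2 fold change -0.19 to 0.34). For Pka-C1 the interval was -0.35 to 0.14 and for Nf1 -0.32 to 0.03.

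On this common scale the order of the 6 groups can be read for each gene. For orb2 it was F0 males (991 CPM), INT males (710 CPM), NINT males (529 CPM), F0 females (176 CPM), INT females (125 CPM) and NINT females (95.8 CPM). Neighbours in that order overlapped except NINT males with F0 females and INT females with NINT females. For cer the order was F0 males (46.3 CPM), NINT males (40.7 CPM), INT males (29.2 CPM), F0 females (27.9 CPM), INT females (25.3 CPM) and NINT females (22.8 CPM), and NINT males with INT males were the only neighbours without overlap. For klg F0 males (12.8 CPM) stood first and NINT females (3.41 CPM) last, and INT females with NINT females were the only neighbours apart. On this scale INT females were wholly above NINT females in 18.6% of all genes, and INT males wholly below NINT males in 9.07%. The share for NINT males with F0 females was not worked out. For dnc F0 females (162 CPM) stood first and NINT males (53.5 CPM) last. NINT females were the lowest group in rut, rad, cer, orb2, Pka-C1, Fas2 and klg.

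Other genes of the same pathways were followed in 8 lists of 90 genes, 89 of which were found. In INT against NINT males edgeR called none of the 89 tested, and 54 lay above 0 with a median log2 of 0.07. An unadjusted p under 0.05 was reached by 15 of the 89, where 16.4% of all genes reached it. In females, where 0.995% of all genes were called, it called 1 of 86, the dopamine receptor gene Dop2R, and 57 lay above 0 with a median log2 of 0.13. Dop2R was at 20.8 ± 4.45 CPM in INT females and 6.31 ± 0.894 CPM in NINT females (log2 fold change 1.72, SE 0.29, adjusted p = 0.0298 by edgeR). In males the means were 24.8 ± 14.7 CPM in INT males and 16.6 ± 10.4 CPM in NINT males, with a wide spread (adjusted p = 0.606 by edgeR). The receptors and G proteins upstream of the cyclase had 12 of 13 above 0 in males (median log2 0.23) and 11 of 13 in females (median log2 0.39). Genes of cAMP synthesis and breakdown had 10 of 14 above 0 in males (median log2 0.09) and 9 of 11 in females (0.41). For PKA, its anchors and targets it was 7 of 11 in males (0.22) and in females (0.08). Ras and Alk partners of Nf1 had 5 of 10 above 0 in males (-0.04) and 4 of 10 in females (-0.06), and genes of mRNA translation 7 of 11 in males (0.07) and 6 of 11 in females (0.04). Adhesion and synapse genes had 4 of 12 above 0 in males (-0.08) and 10 of 12 in females (0.19), and other kinases and channels 9 of 14 in males (0.05) and 8 of 14 in females (0.07).

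None of 11 list genes named as related to the 10 genes was called in INT against NINT in either sex. Dop1R1, a dopamine receptor of the mushroom body that acts through cAMP, was at 10.4 ± 1.34 CPM in INT males and 6.57 ± 0.524 CPM in NINT males (log2 fold change 0.67, SE 0.16, adjusted p = 0.161 by edgeR). Its level was 4.76 ± 1.34 CPM in INT females and 2.77 ± 0.316 CPM in NINT females. The regulatory subunit gene Pka-R1 was at 80.0 ± 8.02 CPM in INT males and 67.3 ± 0.340 CPM in NINT males. Pka-R2 was at 143 ± 10.5 CPM in INT males and 122 ± 1.84 CPM in NINT males. In females the log2 fold changes were 0.14 for Pka-R1 and 0.08 for Pka-R2. The catalytic subunit genes Pka-C3 (log2 fold change 0.31 in males, 0.08 in females) and Pka-C2 (0.45 in males, -0.15 in females) were not called either.

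CrebB, the transcription factor phosphorylated by PKA, was at 37.4 ± 4.28 CPM in INT males and 39.6 ± 2.74 CPM in NINT males, and at 40.8 ± 1.56 CPM in INT females and 41.7 ± 4.02 CPM in NINT females. Cp1, a cathepsin gene, was at 484 ± 227 CPM in INT males and 536 ± 76.6 CPM in NINT males, with a wide spread in INT. Proteases of this class are what the protein of cer inhibits. The level of Cp1 was 284 ± 30.2 CPM in INT females and 283 ± 11.3 CPM in NINT females. All 4 cathepsin genes lay below 0 in males, with a median log2 of -0.32 and none called. The cyclase gene Ac3, the synaptic scaffold gene dlg1 and the glial gene repo had log2 fold changes of 0.14, 0.26 and -0.07 in males and 0.32, 0.10 and 0.48 in females, none called. The germline relative orb was at 146 ± 54.2 CPM in INT males and 121 ± 20.0 CPM in NINT males, and at 420 ± 18.7 CPM in INT females and 399 ± 39.7 CPM in NINT females.

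Against F0, 20 of the 86 list genes were lower in NINT females by edgeR, where 14.9% of all genes were called lower, and 5 were higher, against 7.59%. The lower ones were Dop1R1, Dop1R2, Dop2R and DopEcR (dopamine receptors), Ac3, Ac13E, Pde1c and Pde9 (cyclases and phosphodiesterases), Pka-R2 and rg, Alk, mei-P26, Nrg, Fas1, Fas3 and N, and CaMKII, Nmdar2, eag and Sh. The higher ones were Sos, Dsor1 and phl, which act in Ras signalling, and armi and Adf1. In the same comparison 6 of the 10 neuron markers were called lower, and their part in the list genes was not tested. In NINT males 1 of 89 list genes was called higher than in F0, rl (the ERK kinase), and 1 lower, Sh. Of all genes 5.04% were called there, 2.51% lower. In INT males rl alone of the 89 was called against F0, and was higher, where 1.82% of all genes were called.

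The genes whose log2 levels were most like those of a member over the 18 libraries were taken from 15304 genes by Pearson's r. The points share the groups, the sexes and the library sizes, so r describes likeness of the pattern only. For orb2, the 2 nearest genes were CG31913 (r = 0.996) and CG4375 (0.994). For klg they were stnA (0.984) and GluClalpha (0.980), for rad jim (0.974) and CG43102 (0.973), and for rut per and CG31145 (both 0.972). For Fas2 they were Atpalpha (0.970) and stumps (0.961), for amn shn (0.963) and how (0.948), for dnc Glut4EF (0.962) and Dys (0.959), and for Pka-C1 pan (0.959) and mamo (0.946). The lowest values of likeness were those of Nf1, with CASK (0.908) and CR45109 (0.886), and of cer, with CG11041 (0.901) and NijB (0.900).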

How the data were processed

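The authors deposited raw counts of reads per gene, 1 table for each sex, and no other measure; the submitters' processing notes name the build dm6 and DESeq2. The aligner, the counter and its use of the strand remain not given in the sources used here. Libraries came from total RNA with a stranded kit, per the labels' protocols.

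The 9 libraries of each sex were fitted in R 4.3.3 by edgeR 4.0.16, which loads limma 3.58.1, with 1 coefficient per group, TMM scaling, filterByExpr (minimum count 10, minimum total count 15) and the two-sided quasi-likelihood test. Benjamini-Hochberg adjusted p-values under 0.05 over all genes tested were called. A fit of the 18 libraries gave the interactions with sex (females minus males) and males against females. DESeq2 1.42.0 was an alternative. Intervals are 95%. Levels are CPM scaled within a sex, a choice made after levels scaled over the 18 libraries had been seen, and the latter serve for males against females, the order of the 6 groups and the nearest genes (prior count 2). Lengths are exon bases of the Ensembl annotation of the same assembly. Of 16747 entries 16639 matched RefSeq, and 109 ribosomal RNA entries were kept. Male libraries held 31.8 to 39.2 M counts and female libraries 31.6 to 58.3 M. Python 3.11.15 with pandas 2.3.3 and matplotlib 3.10.9 served for summaries and plots.

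On simulated counts the male fit recovered 13% of genes changed 2-fold and 74% of those changed 4-fold (100 genes each of 14974), and the female fit 25% and 70% (of 12968). Unchanged genes called were 1 in the male and 9 in the female fit.

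The text names the 10 genes, list genes called in INT against NINT or in its interaction with sex, 11 list genes related to the 10, and for each of the 10 the 2 nearest genes. List genes called against F0 were named after their values were seen. Genes, lists, markers and the libraries left out as standing apart were chosen with earlier results of these data known. The interactions of INT and NINT against F0 with sex were added after the data were seen.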

Additional observations from a re-analysis of the deposited data

Results flagged for a closer look

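The difference of NINT against F0 in amn, a neuropeptide gene, was not the same in the sexes by a test of the difference itself, added after the data were seen. The interaction, females minus males, was -2.41 on the log2 scale (SE 0.66, adjusted p = 0.0386 by edgeR), and amn was the 1 gene of the 10 called in a test that called 8.15% of all genes. In females amn was at 1.98, 2.38 and 1.52 CPM in NINT and 11.8, 5.41 and 2.69 CPM in F0, and in males at 1.33, 1.46 and 2.05 CPM in NINT and 1.34, 0.788 and 0.694 CPM in F0. The call was lost without any 1 of F0 females 1 and 2, F0 males 2 and 3 and the 6 NINT libraries. The interaction was -1.70 without F0 female 1 and -1.32 (adjusted p = 0.657 by edgeR) without the libraries that stood apart. Without F0 female 3, 6 of the 10 genes were called, in a fit that called 4497 genes, against 1248 with all libraries. The overlapping gene Hers was at 51.6 ± 8.20 CPM in NINT females and 88.9 ± 50.0 CPM in F0 females, and at 89.0 ± 13.8 CPM in NINT males and 58.9 ± 1.94 CPM in F0 males (SD, n = 3 each). Its part in the amn counts was not tested.

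Pka-C1 had NINT wholly above F0 in males, against 24.3% of all genes (log2 fold change 0.16, adjusted p = 0.42 by edgeR). In females NINT was wholly below F0, against 21.0% of all genes (log2 fold change -0.80, adjusted p = 0.0469 by edgeR). The call in females was lost in 9 of the other settings and kept in 5. Without the libraries that stood apart its log2 fold change in females was -0.13. The interaction was -0.83 (SE 0.28, unadjusted p = 0.0104, adjusted p = 0.0776 by edgeR), so the difference between the sexes was not called. With levels scaled over the 18 libraries the male groups overlapped.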

How the results depend on the processing

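Of 1650 fold changes of the 10 genes under other settings, 1469 kept direction and side of the threshold, 61 lost a call, 47 gained one and 73 changed sign. Most of the 1650 were of genes not called in the design as fitted. Of the lost calls 39 were in NINT against F0 females. In NINT against F0 males klg lost its call in 10 settings and kept it in 4. In the interaction of NINT against F0 with sex amn lost its call in 12 settings and kept it in 6. The number of all genes called in the design as fitted was 6 in INT against NINT males, 274 in INT against F0 males, 759 in NINT against F0 males, 131 in INT against NINT females, 279 in INT against F0 females, 2961 in NINT against F0 females, 41 in the interaction of INT against NINT with sex, 12429 in males against females, 85 in the interaction of INT against F0 with sex and 1248 in the interaction of NINT against F0 with sex. Beyond what the settings do by construction (fewer libraries or fewer genes), the cause of these changes was not tested. Counts of amn, at 28 to 341 in a library, and groups of 3 libraries limit the precision.

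With DESeq2 the number of the 10 genes called was 2 in INT against NINT males, 2 in INT against F0 males, 2 in NINT against F0 males, 8 in NINT against F0 females and 1 in the interaction of INT against F0 with sex. The DESeq2 fits held 15051 genes in males, 13169 in females and 15304 over both sexes. Over all genes, calls with DESeq2 numbered 934 in INT against NINT males, 1416 in INT against F0 males, 3125 in NINT against F0 males, 870 in INT against NINT females, 983 in INT against F0 females, 4503 in NINT against F0 females, 505 in the interaction of INT against NINT with sex, 570 in the interaction of INT against F0 with sex and 2538 in the interaction of NINT against F0 with sex. Fold changes with DESeq2 turned to -0.033 for amn in the interaction of INT against NINT with sex and 0.0060 for Nf1 in the interaction of NINT against F0 with sex. Without the libraries with high yolk or Act88F levels the number of the 10 genes called was 0 in NINT against F0 males, 0 in NINT against F0 females and 0 in the interaction of NINT against F0 with sex. Over all genes, calls without the libraries with high yolk or Act88F levels numbered 0 in INT against NINT males, 0 in INT against F0 males, 0 in NINT against F0 males, 839 in INT against NINT females, 166 in INT against F0 females, 867 in NINT against F0 females, 2 in the interaction of INT against NINT with sex, 0 in the interaction of INT against F0 with sex and 0 in the interaction of NINT against F0 with sex. Log2 fold changes without the libraries with high yolk or Act88F levels turned to -0.082 for Fas2 in INT against F0 males, 0.11 for cer in NINT against F0 males, -0.055 for Nf1 in INT against NINT females, 0.58 for rut, 0.49 for rad, 0.19 for cer, 0.19 for orb2, 0.090 for Pka-C1 in INT against F0 females, 0.10 for rut in NINT against F0 females, -0.34 for amn, -0.12 for rad, -0.069 for Pka-C1 in the interaction of INT against NINT with sex, 0.15 for Pka-C1 in males against females, 0.41 for rut, 0.82 for orb2 in the interaction of INT against F0 with sex and 0.31 for dnc, 0.017 for rut, 0.0021 for rad, 0.23 for Nf1 in the interaction of NINT against F0 with sex. That setting leaves 1 library each in NINT males, F0 males and F0 females, which are then assumed to vary like the other groups.

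With ribosomal RNA left out the number of the 10 genes called was 0 in NINT against F0 males, where klg had an adjusted p of 0.0504 by edgeR. Over all genes, calls with ribosomal RNA left out numbered 25 in the interaction of INT against NINT with sex. Signs of log2 fold changes with ribosomal RNA left out turned to 0.0086 for klg in INT against F0 males and -0.046 for amn in the interaction of INT against NINT with sex. With the 6 compared libraries fitted alone the number of the 10 genes called was 2 in NINT against F0 males, 2 in INT against NINT females and 1 in NINT against F0 females. Over all genes, calls with the 6 compared libraries fitted alone numbered 45 in INT against F0 males, 4839 in NINT against F0 males, 1320 in INT against NINT females, 32 in INT against F0 females and 1224 in NINT against F0 females. Fold changes with the 6 compared libraries fitted alone turned to 0.011 for klg in INT against F0 males. With no filter on low counts the number of the 10 genes called was 0 in NINT against F0 males, where klg had an adjusted p of 0.0508 by edgeR. Over all genes, calls with no filter on low counts numbered 21 in the interaction of INT against NINT with sex. Log2 fold changes with no filter on low counts turned to -0.056 for amn in the interaction of INT against NINT with sex. With a filter of 5 CPM in 3 libraries amn was removed and not tested, and of the 9 genes left 0 were called in the interaction of NINT against F0 with sex. Over all genes, calls with a filter of 5 CPM in 3 libraries numbered 408 in NINT against F0 males and 26 in the interaction of INT against NINT with sex. Signs of log2 fold changes with a filter of 5 CPM in 3 libraries turned to -0.013 for orb2 in the interaction of NINT against F0 with sex. With RLE scaling the number of all genes called was 22 in the interaction of INT against NINT with sex. Fold changes with RLE scaling turned to -0.033 for amn in the interaction of INT against NINT with sex and 0.0048 for Nf1 in the interaction of NINT against F0 with sex. With levels scaled over 18 libraries in place of within each sex, a setting chosen after both had been seen, 30 of 60 group means moved by less than 1 SD, 5 of the 10 genes were wholly higher in INT against NINT males and 0 in NINT against F0 males.

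With the replicate number as a block (replicate block), the number of the 10 genes called was 0 in NINT against F0 males, 0 in NINT against F0 females and 0 in the interaction of NINT against F0 with sex, and the number of all genes called was 0 in INT against NINT males, 63 in INT against F0 males, 149 in NINT against F0 males, 3 in INT against NINT females, 80 in INT against F0 females, 850 in NINT against F0 females, 7 in the interaction of INT against NINT with sex, 43 in the interaction of INT against F0 with sex and 652 in the interaction of NINT against F0 with sex. The log2 value changed sign to 0.077 for orb2 in the interaction of INT against F0 with sex. Deviations of libraries with the same number correlated at -0.39 to 0.417, so the numbers were not taken to pair the samples, and in 9 of 36 pairs of a library and another group of its sex the best match had the same number.

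Without each replicate in turn, the number of the 10 genes called was 0 to 2 in INT against NINT males, 0 to 1 in INT against F0 males, 0 to 0 in NINT against F0 males, 0 to 8 in INT against F0 females, 0 to 8 in NINT against F0 females, 0 to 4 in the interaction of INT against F0 with sex and 0 to 6 in the interaction of NINT against F0 with sex. The number of all genes called was 0 to 3956 in INT against NINT males, 28 to 482 in INT against F0 males, 84 to 924 in NINT against F0 males, 4 to 153 in INT against NINT females, 30 to 4310 in INT against F0 females, 583 to 6851 in NINT against F0 females, 5 to 702 in the interaction of INT against NINT with sex, 19 to 2462 in the interaction of INT against F0 with sex and 372 to 4497 in the interaction of NINT against F0 with sex. The log2 values that changed sign ran from -0.23 to 0.14 for rut, -0.15 to 0.44 for amn, -0.0028 to 0.21 for Fas2 in INT against NINT males, -0.090 to 0.026 for klg, -0.064 to 0.15 for Fas2 in INT against F0 males, -0.17 to 0.029 for cer, -0.11 to 0.019 for Fas2 in NINT against F0 males, -0.072 to 0.078 for Nf1 in INT against NINT females, -0.93 to 0.10 for rut, -0.24 to 0.049 for cer in INT against F0 females, -0.25 to 0.36 for amn, -0.093 to 0.35 for rad, -0.31 to 0.061 for orb2, -0.097 to 0.18 for Pka-C1 in the interaction of INT against NINT with sex, -0.0032 to 0.16 for Fas2 in males against females, -0.28 to 0.39 for orb2 in the interaction of INT against F0 with sex and -0.14 to 0.13 for Nf1, -0.24 to 0.43 for orb2, -0.26 to 0.095 for cer in the interaction of NINT against F0 with sex.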
